A study of Mus musculus with 12 samples.

Results

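Piezo1 knockout macrophages were compared with wild-type macrophages while both were exposed to the yeast Candida albicans. The cells were mouse bone marrow derived macrophages, grown from marrow of the femur and tibia with the macrophage growth factor M-CSF at 50 ng per ml, and their polyadenylated RNA was sequenced. The comparison holds 6 of the 12 libraries of the series, 3 of the wild type with C. albicans and 3 of the Piezo1 knockout with C. albicans. The other 6 are 3 wild-type and 3 knockout libraries with the buffer PBS, and they enter where the knockout effect with C. albicans was set against that with PBS. The labels give no strain, age or sex of the mice, no dose of the yeast, no time of exposure, and no word on how Piezo1 was removed or in which cells. The labels do not tie replicates to different mice or dishes, so every p-value measures only the spread between these libraries, which may be technical. The members were chosen by level alone: of 25230 genes, 10974 reached 1 TPM in at least 3 of the 6 libraries with C. albicans and were all tested. TPM is a level of transcripts corrected for gene length and for the total of the library. The last gene kept had a third-highest value of 1.00008 TPM among the 6 and the first left out 0.999687 TPM. Among genes kept, 41 reached the minimum in the 3 wild-type libraries and in no knockout library, and 19 in the 3 knockout libraries and in no wild-type one.

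Piezo1 is a cation channel of the plasma membrane that opens when the membrane is stretched and lets calcium into the cell. Macrophages recognise C. albicans through C-type lectin receptors for its cell wall sugars, such as Dectin-1, Dectin-2 and Mincle, and through Toll-like receptors. The C-type lectin receptors signal through the kinase SYK and the CARD9, BCL10 and MALT1 complex, the Toll-like receptors through MYD88, and both routes lead to NF-kB and to MAP kinases, which switch on genes of cytokines, chemokines and of the inhibitors that end the response.

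Piezo1 (gene 234839, chromosome 8, 122481698 to 122551329 in GRCm38) was read in all libraries, and its level checks the labels. It stood at 147, 132 and 132 TPM in wild-type replicates 1 to 3 and 64.6, 64.3 and 65.7 TPM in knockout replicates 1 to 3. The groups did not overlap, and the knockout kept 47.4% of the wild-type mean, and the log2 fold change was -1.06 (SE 0.05, adjusted p = 2.8e-08). Total reads in genes ran from 16400119 to 25741091 per library. Replicate 1 of the wild type with C. albicans stood apart: its reads differed from those of replicates 2 and 3 by a chi-square of 16.2 and 15.3 per degree of freedom over genes, where all other pairs within a group gave 1.49 to 4.60. What set it apart was not tested, and values without it are given below as the log2 fold change without wild-type replicate 1. All 10 macrophage markers listed (Csf1r, Adgre1, Cd68, Itgam, Fcgr1, Mertk, Mpeg1, Cd14, Lyz2 and Aif1) were tested, and their summed level was 24625 to 25935 TPM in the wild type and 18179 to 18302 TPM in the knockout with C. albicans, a sum led by Lyz2. Of 10 neutrophil markers 8 stayed under 1 TPM in all 12 libraries, Ly6g among them, and none of the listed markers of B cells, dendritic cells, fibroblasts or erythroid cells passed the level filter. The filter did pass 1 neutrophil, 1 T cell and 1 mast cell or basophil marker. It also passed 3 of 5 endothelial markers, a list summed at 38.6 to 46.9 TPM in the wild type and 30.7 to 31.8 TPM in the knockout with C. albicans. Of 6 osteoclast markers 2 passed, with list sums of 104 to 115 TPM and 135 to 139 TPM. In bulk RNA fewer cells with a transcript and less of it per cell cannot be told apart.

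With C. albicans, knockout macrophages had lower levels of most tested CXC chemokine, cytokine and NF-kB genes, with Cxcl2 at 51.2%, Tnf at 56.4% and Clec4e at 29.5% of the wild-type mean, and higher levels of most tested MHC class II genes, with H2-Aa at 145%. A gene is called here at a Benjamini-Hochberg adjusted p under 0.05 in limma on log2(TPM + 1), a scale that understates the change of low genes, and a log2 fold change is knockout minus wild type on that scale. Of 10974 genes 4513 (41.1%) were called, 1408 higher (12.8%) and 3105 lower (28.3%) in the knockout. At least 2-fold changes were fewer, 118 genes (1.08%), of which 106 (0.966%) were lower and 12 (0.109%) higher. The lower genes include some that met the level filter through the wild type, such as Nos2, Fpr1 and Lyplal1. Their differences are descriptions, and how many such genes the 118 hold was not counted. For 3738 genes (34.1%) all 3 knockout libraries lay below all 3 wild-type ones, and for 1772 (16.1%) above, so 50.2% of genes did not overlap. The split depended on scaling: higher genes were 31.2% of those called on TPM as deposited, 47.0% (2181 to 2455) with median-ratio factors, 48.6% (2271 to 2406) with TMM factors, 51.9% (2446 to 2267) with upper-quartile factors and 51.2% (1817 to 1732) after removal of trends in gene length and GC content. The median log2 fold change over all genes was -0.05 on TPM and moved by at most 0.0737 under these scalings. As shares of the genes tested these were 19.9% higher and 22.4% lower with median-ratio factors and 17.3% and 16.5% with the trends removed. Counts per gene list below are to be read against the shares of the same setting. Without wild-type replicate 1 the counts were 1749 higher (15.9%) and 2955 lower (26.9%), and 4032 of the 4513 calls were kept in the same direction. Of the 118 genes changed at least 2-fold, 114 stayed called in the same direction without that library, 117 with median-ratio factors and all 95 that could be fitted with the length and GC trends removed.

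**Figure D1:**
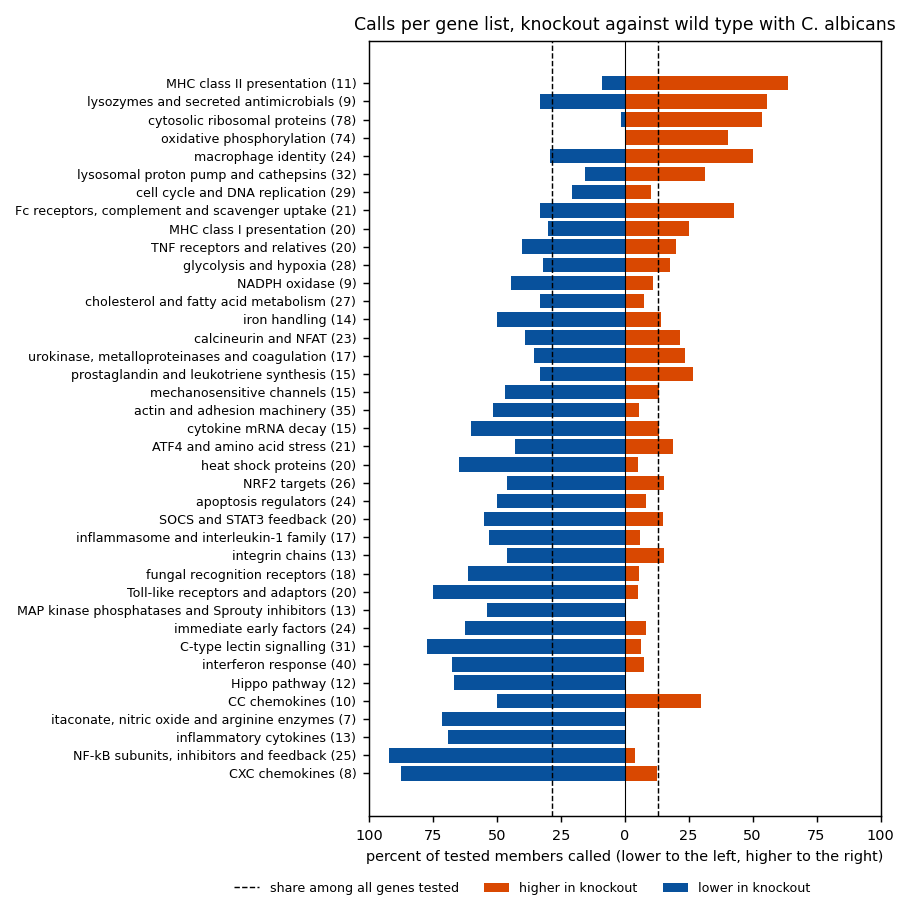
Share of tested members called higher (bars to the right) or lower (bars to the left) in the knockout with C. albicans, in percent, for each gene list with at least 7 tested members (number tested in brackets). Dashed lines mark the shares among all 10974 genes, 12.8% higher and 28.3% lower. Lists are ordered by the median log2 fold change of their tested members, with MHC class II at the top and the CXC chemokines and the NF-kB genes at the bottom.

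The promoters of 3 CXC chemokine genes and 2 NF-kB inhibitor genes that were lower in the knockout are shown first. They were picked because they match a pattern close to the sequence that NF-kB dimers are known to bind. N in the pattern stands for any base, so a match need not be that sequence. Each is the 250 bases before the annotated start in RefSeq, GRCm38.p6, 5′ to 3′ on the strand of the gene: Cxcl1 at chr5:90890995-90891244 (plus strand), Cxcl2 at chr5:90903649-90903898 (plus), Cxcl3 at chr5:90785851-90786100 (plus), Nfkbia at chr12:55492648-55492897 (minus) and Tnfaip3 at chr10:19015411-19015660 (minus). Capitals mark each match to GGGNNTTTCC, the one motif searched, on either strand.
Cxcl1: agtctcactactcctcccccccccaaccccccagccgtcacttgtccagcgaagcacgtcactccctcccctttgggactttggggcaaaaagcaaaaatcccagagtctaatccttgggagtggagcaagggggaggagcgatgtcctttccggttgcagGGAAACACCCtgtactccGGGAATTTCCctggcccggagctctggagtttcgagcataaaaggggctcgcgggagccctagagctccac
Cxcl2: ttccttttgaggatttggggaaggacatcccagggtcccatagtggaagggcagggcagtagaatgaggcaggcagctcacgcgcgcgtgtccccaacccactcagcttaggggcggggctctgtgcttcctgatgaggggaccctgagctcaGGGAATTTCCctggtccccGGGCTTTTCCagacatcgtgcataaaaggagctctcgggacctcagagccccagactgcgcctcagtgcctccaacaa
Cxcl3: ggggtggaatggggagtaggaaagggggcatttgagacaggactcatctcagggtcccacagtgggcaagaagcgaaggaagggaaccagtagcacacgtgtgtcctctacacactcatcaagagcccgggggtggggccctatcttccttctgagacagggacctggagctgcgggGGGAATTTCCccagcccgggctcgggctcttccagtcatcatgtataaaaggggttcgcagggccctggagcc
Nfkbia: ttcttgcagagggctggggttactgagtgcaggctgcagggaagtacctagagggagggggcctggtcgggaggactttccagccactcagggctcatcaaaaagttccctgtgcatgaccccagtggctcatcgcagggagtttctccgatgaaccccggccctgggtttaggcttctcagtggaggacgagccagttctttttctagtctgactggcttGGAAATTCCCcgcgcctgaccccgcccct
Tnfaip3: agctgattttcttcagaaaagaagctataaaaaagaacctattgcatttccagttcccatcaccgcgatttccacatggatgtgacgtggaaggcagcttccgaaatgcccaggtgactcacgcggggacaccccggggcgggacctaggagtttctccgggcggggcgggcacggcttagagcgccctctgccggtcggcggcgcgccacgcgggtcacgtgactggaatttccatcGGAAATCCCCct

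Cxcl2 held 2 matches on its own strand, 87 and 68 bases before the start, and Cxcl1 held 1 on its own strand at 61 bases and 1 on the opposite strand at 79 bases. Cxcl3 had its match 63 bases before the start, Nfkbia on the opposite strand at 19 bases and Tnfaip3 on the opposite strand at 2 bases. The motif was present in 1.41% of all 32851 such windows in the reference table. Among tested genes with a window it was in 122 of 8778 (1.39%), in 52 of 2502 genes lower in the knockout (2.08%), in 5 of 75 lower at least 2-fold (6.67%) and in 10 of 1127 higher (0.887%). It was in 5 of 21 windows of the NF-kB list, in 3 of 6 of the CXC chemokine list and in 0 of 7 of the MHC class II list. A match describes these letters only and is no evidence that a factor was bound.

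Most tested CXC chemokine genes were lower in the knockout, among them the neutrophil-attracting Cxcl1, Cxcl2 and Cxcl3. Of 8 tested CXC chemokine genes 7 were lower and 1 higher, against 28.3% lower and 12.8% higher over all genes, and the list median was -0.93 against -0.05. The 7 include Cxcl11, whose value is a description only, as given below. Cxcl2, an inducible ligand of the neutrophil receptor CXCR2, stood at 547, 619 and 617 TPM in wild-type replicates 1 to 3 and 314, 289 and 309 TPM in knockout replicates 1 to 3. The 3 knockout libraries lay together and below all wild-type libraries. Its log2 fold change was -0.96 (SE 0.10, adjusted p = 1.5e-05), where the level with PBS was 6.86 ± 0.870 TPM in the wild type and 10.0 ± 1.77 TPM in the knockout (SD, n = 3). Cxcl1, a ligand of the same receptor, stood at 33.2, 28.0 and 28.2 TPM in wild-type replicates 1 to 3 and 12.6, 11.4 and 11.4 TPM in knockout replicates 1 to 3. It too did not overlap, at -1.26 (SE 0.22, adjusted p = 5.6e-04), though the call was lost with a pseudocount of 0.1 (log2 fold change -1.33). Cxcl3 stood at 6.36, 15.3 and 20.1 TPM in wild-type replicates 1 to 3 and 3.34, 3.05 and 3.48 TPM in knockout replicates 1 to 3. Wild-type replicate 1 was the nearest to the knockout, and the log2 fold change moved from -1.67 to -2.11 without it. Cxcl10, which attracts T cells and is induced by interferon, stood at 83.5, 136 and 139 TPM in wild-type replicates 1 to 3 and 42.3, 40.4 and 42.7 TPM in knockout replicates 1 to 3, at -1.46 (SE 0.15, adjusted p = 7.8e-06). Again wild-type replicate 1 lay between the other wild-type libraries and the knockout. Cxcl11 passed the level filter only through the wild type, with no knockout library at 1 TPM, and its lower value, 0.417, 0.739 and 0.756 TPM in the knockout against 1.37, 2.28 and 2.57 TPM in the wild type, is a description. Pf4 fell by 0.38 and Cxcl16, a membrane-bound chemokine, by 0.26, and Cxcl14 rose by 0.55.

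**Figure D2:**
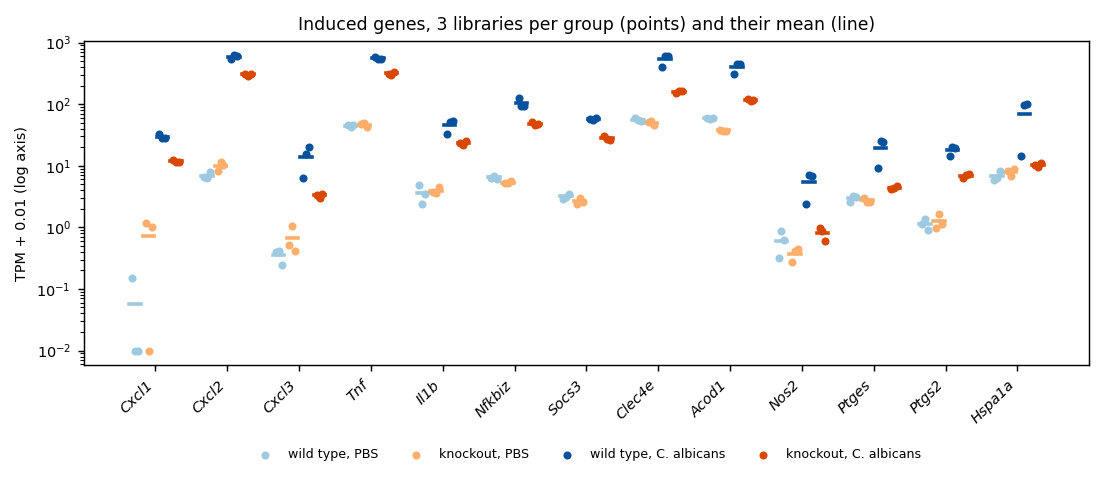
TPM + 0.01 on a log axis for these genes in the 4 groups, each point a library and each line a group mean. With C. albicans the knockout points (dark orange) lie below the wild-type points (dark blue) for each gene, and for Hspa1a, Nos2, Ptges and Cxcl3 one wild-type point, replicate 1, lies apart from the other two.

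The CC chemokines were divided. Of 10 tested, 5 were lower and 3 higher, against 28.3% lower and 12.8% higher over all genes, with a median of -0.42. Ccl3 and Ccl4, made early by activated macrophages, fell by 0.81 and 0.73. Ccl3 stood at 589, 606 and 621 TPM in wild-type replicates 1 to 3 and 368, 335 and 333 TPM in knockout replicates 1 to 3, without overlap. Ccl7 and Ccl2, which attract monocytes through CCR2, fell by 0.99 and 0.72, and Ccl9 by 0.73. Ccl2 stood at 169, 126 and 116 TPM in wild-type replicates 1 to 3 and 84.4, 81.9 and 78.2 TPM in knockout replicates 1 to 3, with wild-type replicate 1 the highest, and its log2 fold change was -0.56 without that library. Ccl5, already abundant with PBS at 4028 ± 9.12 TPM (SD, n = 3), went the other way: it stood at 3112, 3215 and 3103 TPM in wild-type replicates 1 to 3 and 3683, 3800.2 and 3601 TPM in knockout replicates 1 to 3 and rose by 0.23 (adjusted p = 9.6e-06). Ccl8 rose by 0.27 and Ccl6 by 0.14, while Ccl12 (-0.12) and Ccl22 (0.11) did not pass.

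Among cytokines no gene was called higher: of 13 tested, 9 were lower, with a median of -0.63 against 0.06 for the same genes with PBS. The shares over all genes were 28.3% lower and 12.8% higher. Tnf, which encodes tumour necrosis factor, stood at 594, 538 and 546 TPM in wild-type replicates 1 to 3 and 315, 302 and 329 TPM in knockout replicates 1 to 3. The groups were far apart for their spread, at -0.82 (SE 0.06, adjusted p = 3.5e-07), and the knockout kept 56.4% of the wild-type level. Il1b, which encodes interleukin-1 beta, stood at 33.4, 51.2 and 53.3 TPM in wild-type replicates 1 to 3 and 23.7, 21.4 and 25.4 TPM in knockout replicates 1 to 3. Wild-type replicate 1 was the lowest of its group and still above the knockout, and the log2 fold change was -0.91 (SE 0.19, adjusted p = 0.0018) with it and -1.12 without it. Il1a, the gene of interleukin-1 alpha, fell by 0.80, and Il1rn, the gene of their receptor antagonist, by 0.63. Il10, which encodes an anti-inflammatory cytokine, stood at 22.9, 17.9 and 20.9 TPM in wild-type replicates 1 to 3 and 12.8, 14.4 and 11.4 TPM in knockout replicates 1 to 3 and fell by 0.63, in the same direction as Tnf. Csf1, encoding M-CSF, fell by 0.77, Tnfsf9, a TNF-type ligand, by 0.86, Il27 by 0.58 and Osm, encoding oncostatin M, by 0.47. The call for Il27 was lost with median-ratio factors and without wild-type replicate 1. Ebi3 (-0.32), Il15 (-0.15), Il18 (-0.02) and Tgfb1 (0.06) did not pass. Il12b, the gene of a subunit shared by several interleukins of one family, stayed under the level filter, with 6, 97 and 63 reads in wild-type replicates 1 to 3 and 3, 8 and 13 in the knockout. Il6 had 3, 24 and 7 reads in the wild type and 3, 4 and 1 in the knockout, so at this depth its groups overlapped.

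The NF-kB system itself was lower in the knockout with C. albicans. Of its 25 listed subunits, inhibitors and feedback genes, all tested, 23 were lower, 1 was higher and 1 did not pass, with a median of -0.64. Among all genes 28.3% were lower and 12.8% higher. With PBS the same list had a median of -0.10. Among the subunits, Nfkb1 fell by 0.74, Nfkb2 by 0.80, Rel by 0.68, Relb by 0.62 and Rela by 0.24. Nfkbia, the gene of the inhibitor IkB-alpha that NF-kB itself induces, stood at 762, 664 and 647 TPM in wild-type replicates 1 to 3 and 392, 405 and 394 TPM in knockout replicates 1 to 3. Its promoter is printed above, and its log2 fold change was -0.79 (SE 0.05, adjusted p = 2.4e-07). Tnfaip3, which encodes the ubiquitin-editing inhibitor A20, stood at 226, 172 and 172 TPM in wild-type replicates 1 to 3 and 92.0, 89.0 and 93.5 TPM in knockout replicates 1 to 3. Wild-type replicate 1 was the highest, so that the log2 fold change was -1.03 with it and -0.90 without it. Nfkbiz, the gene of a nuclear cofactor needed for a late set of NF-kB targets, stood at 124, 92.5 and 92.3 TPM in wild-type replicates 1 to 3 and 50.9, 46.3 and 48.3 TPM in knockout replicates 1 to 3 and fell by 1.06. Icam1, an adhesion receptor for leukocyte integrins, stood at 268, 306 and 318 TPM in wild-type replicates 1 to 3 and 147, 149 and 147 TPM in knockout replicates 1 to 3. The knockout was at 49.7% of the wild-type mean (adjusted p = 4.6e-08). Tnip3 and Tnip1, partners of A20, fell by 1.09 and 0.78, and Tnfaip2 fell by 0.64. Traf1, an adaptor of TNF receptors, fell by 1.36. The remaining lower members were Nfkbie (-0.84), Birc3 (-0.77), Nfkbid (-0.54), Zc3h12a (-0.51), Bcl3 (-0.49), Traf2 (-0.49), Nfkbib (-0.45), Cyld (-0.29), Otulin (-0.21) and Birc2 (-0.21). Tnfaip8 rose by 0.19, and Tnip2 (-0.01) did not pass. Cyld and Birc2 were not called with length and GC trends removed, nor Birc2 and Otulin with median-ratio factors. The lower count was 21 with median-ratio factors, 21 with length and GC trends removed and 22 without wild-type replicate 1, with the 1 higher gene in each.

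Fast transcriptional and MAP kinase feedback genes moved the same way. Of 24 immediate early genes 15 were lower and 2 higher (median -0.33), against 28.3% lower and 12.8% higher over all genes. Of 13 MAP kinase phosphatase and Sprouty-type inhibitor genes 7 were lower and 0 higher (median -0.32). Fos, a subunit of the transcription factor AP-1, stood at 122, 139 and 142 TPM in wild-type replicates 1 to 3 and 96.4, 93.3 and 97.8 TPM in knockout replicates 1 to 3 and fell by 0.48. Junb fell by 0.42, Klf6 by 0.62, and Ier3 by 0.77. Egr1 stood at 12.3, 18.8 and 20.1 TPM in wild-type replicates 1 to 3 and 9.78, 9.86 and 9.25 TPM in knockout replicates 1 to 3, where wild-type replicate 1 was the lowest of its group. Its log2 fold change was -0.74 (SE 0.20, adjusted p = 0.011). Dusp4, a nuclear phosphatase that switches off MAP kinases, stood at 213, 181 and 186 TPM in wild-type replicates 1 to 3 and 82.4, 83.2 and 84.6 TPM in knockout replicates 1 to 3. It was lower by more than any other named gene of its list, at -1.20 (SE 0.06, adjusted p = 3.6e-08), and the groups did not overlap. Dusp1, of the same family, fell by 0.59, and Spred1 and Spred2, inhibitors of the RAS to MAP kinase route, by 1.04 and 0.74. Socs3, which limits signalling of cytokine receptors, stood at 58.1, 54.9 and 59.0 TPM in wild-type replicates 1 to 3 and 30.0, 27.0 and 26.2 TPM in knockout replicates 1 to 3, at -1.02 (SE 0.08, adjusted p = 1.0e-06). Its list of SOCS and STAT3 feedback genes had 11 of 20 lower and 3 higher, with a median of -0.21, and -0.22 with PBS. Zc3h12c and Zc3h12a, of the Regnase family of ribonucleases that degrade cytokine mRNA, fell by 1.17 and 0.51, the second by 0.36 without wild-type replicate 1.

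Receptors for the yeast did not all move. Of 18 tested fungal recognition receptors 11 were lower and 1 higher, against 28.3% lower and 12.8% higher over all genes. The list median was -0.24, and -0.20 with PBS. Clec4e, the gene of the inducible C-type lectin Mincle (chromosome 6, 123281789 to 123289871), stood at 395, 610.0 and 611 TPM in wild-type replicates 1 to 3 and 154, 162 and 162 TPM in knockout replicates 1 to 3. The knockout kept 29.5% of the wild-type mean and the groups did not overlap, at -1.72 (SE 0.13, adjusted p = 8.2e-07). Tlr2 stood at 585, 621 and 619 TPM in wild-type replicates 1 to 3 and 307, 322 and 329.6 TPM in knockout replicates 1 to 3 and fell by 0.93. Clec7a, the gene of the beta-glucan receptor Dectin-1, stood at 157, 149.7 and 145 TPM in wild-type replicates 1 to 3 and 140.5, 145 and 139.7 TPM in knockout replicates 1 to 3. Its log2 fold change of -0.09 (SE 0.05, adjusted p = 0.15) did not pass in any of the alternatives. Clec4n, encoding Dectin-2, did not pass either (-0.16 (SE 0.10, adjusted p = 0.22)), and its libraries overlapped. Tlr9, a sensor of microbial DNA, fell by 0.64, Nod2 by 0.88, Tlr1, the partner of Tlr2, by 0.65 and Itgam, the alpha chain of complement receptor CR3, by 0.34. With PBS the log2 fold changes were -0.50 for Tlr2, -0.78 for Tlr9 and -0.80 for Itgam. Of 20 Toll-like receptor and adaptor genes 15 were lower and 1 higher (12 and 2 with median-ratio factors, 9 and 4 with length and GC trends removed), and Myd88 fell by 0.28. The median of these genes was -0.27, and -0.20 with PBS.

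Downstream of the lectins, 24 of 31 signalling genes were lower and 2 higher, against 28.3% lower and 12.8% higher over all genes. Their median was -0.35, and -0.22 with PBS. With length and GC trends removed the count was 20 lower and 4 higher. Malt1, the protease of the CARD9 complex, stood at 69.0, 68.0 and 67.9 TPM in wild-type replicates 1 to 3 and 35.5, 33.1 and 35.7 TPM in knockout replicates 1 to 3. Both groups were tight, and the knockout lay at 50.9% of the wild type, at -0.95 (SE 0.06, adjusted p = 1.2e-07). Syk, the kinase gene, stood at 361, 380.0 and 376 TPM in wild-type replicates 1 to 3 and 275, 280.3 and 274 TPM in knockout replicates 1 to 3 and fell by 0.43. Card9 stood at 45.3, 40.1 and 40.7 TPM in wild-type replicates 1 to 3 and 50.1, 42.5 and 48.7 TPM in knockout replicates 1 to 3, where the groups overlapped, and its log2 fold change of 0.16 (SE 0.07, adjusted p = 0.083) did not pass. It was called higher without wild-type replicate 1 (0.21) and with median-ratio factors. Cbl, the gene of a ubiquitin ligase that ends signalling of SYK-coupled receptors (chromosome 9, 44142976 to 44234259), stood at 92.7, 82.0 and 80.9 TPM in wild-type replicates 1 to 3 and 31.1, 31.2 and 29.5 TPM in knockout replicates 1 to 3. It was low in each knockout library, at -1.45 (SE 0.08, adjusted p = 5.0e-08), and with PBS the log2 fold change was -1.38. The Src-family kinase genes Lyn and Src fell by 0.38 and 0.72, Vav1, an exchange factor, by 0.39 (-0.40 with PBS) and Traf6 by 0.50. The higher genes were the receptor adaptors Tyrobp (0.22) and Fcer1g (0.14).

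Most tested genes of itaconate, nitric oxide and arginine metabolism were lower in the knockout, while genes of prostaglandin and leukotriene synthesis were divided. Of 7 tested genes of itaconate, nitric oxide and arginine metabolism 5 were lower and 0 higher. The 5 include Nos2, whose value is a description only, as given below. Acod1, whose enzyme makes itaconate, stood at 314, 451 and 444 TPM in wild-type replicates 1 to 3 and 119.5, 114 and 118 TPM in knockout replicates 1 to 3. All wild-type libraries lay above all knockout ones, at -1.75 (SE 0.10, adjusted p = 1.1e-07), and the knockout kept 29.1% of the wild-type mean. Nos2, encoding inducible nitric oxide synthase, stood at 2.38, 6.96 and 6.94 TPM in wild-type replicates 1 to 3 and 0.982, 0.870 and 0.586 TPM in knockout replicates 1 to 3. It passed the level filter only through the wild type, with no knockout library at 1 TPM, so its log2 fold change, -1.73 with wild-type replicate 1 and -2.14 without it, is a description and not a test. That replicate lay between the other wild-type libraries and the knockout. Slc7a2, an arginine transporter gene, fell by 1.09, and Gch1, needed for the cofactor of nitric oxide synthase, by 0.35. The prostaglandin and leukotriene list had 5 of 15 lower and 4 higher (4 and 5 with median-ratio factors), against 28.3% lower and 12.8% higher over all genes. Ptges, whose enzyme completes prostaglandin E synthesis, stood at 9.05, 24.8 and 24.5 TPM in wild-type replicates 1 to 3 and 4.23, 4.30 and 4.65 TPM in knockout replicates 1 to 3, with wild-type replicate 1 again the lowest. The log2 fold change was -1.80 (SE 0.27, adjusted p = 1.7e-04), and -2.25 without that library. Ptgs2, encoding the inducible cyclooxygenase, stood at 14.6, 19.9 and 19.4 TPM in wild-type replicates 1 to 3 and 6.28, 7.03 and 7.48 TPM in knockout replicates 1 to 3, at -1.25 (SE 0.14, adjusted p = 1.9e-05), and Pla2g7 of the same list rose by 0.27. Cybb, the core of the enzyme that makes superoxide in phagocytes, stood at 456, 640.1 and 642 TPM in wild-type replicates 1 to 3 and 331, 338 and 337 TPM in knockout replicates 1 to 3 and fell by 0.77, in a list of 9 NADPH oxidase genes with 4 lower and 1 higher. The inflammasome list had 9 of 17 lower and 1 higher. Nlrp3, the sensor that activates an inflammatory caspase, stood at 162, 144 and 142 TPM in wild-type replicates 1 to 3 and 67.1, 65.8 and 66.2 TPM in knockout replicates 1 to 3, at -1.15 (SE 0.05, adjusted p = 3.1e-08), Casp4 fell by 0.89, and the adaptor Pycard (-0.01) did not pass.

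The largest falls by the rule for named genes included receptors and stress genes with a wide spread in the wild type. Hspa1a and Hspa1b, neighbouring near-identical genes of the inducible heat shock protein HSP70, stood at 14.3, 97.0 and 99.9 TPM and 9.75, 67.9 and 74.6 TPM in wild-type replicates 1 to 3. In the knockout they stood at 10.2, 9.62 and 11.1 TPM and 8.06, 8.44 and 8.79 TPM. In both genes wild-type replicate 1 lay just above the knockout, far from replicates 2 and 3, and reads may be split between the copies. The log2 fold changes were -2.24 and -2.02 (adjusted p = 0.0038 and 0.0079), and -3.14 and -2.94 without that library. Of 20 heat shock protein genes 13 were lower and 1 higher (8 and 1 with median-ratio factors), with Hspa8 at -0.34 and Hsp90aa1 at -0.42. Among all genes 28.3% were lower and 12.8% higher (22.4% and 19.9% with median-ratio factors). Fpr1, a receptor for bacterial formyl peptides, stood at 1.13, 8.93 and 9.59 TPM in wild-type replicates 1 to 3 and 0.855, 1.03 and 0.775 TPM in knockout replicates 1 to 3, and moved from -1.69 to -2.44 without wild-type replicate 1. Its wild-type libraries alone met the level filter, and only knockout replicate 2 reached 1 TPM, so the difference is a description. Gpr84, which senses fatty acids of medium chain length, stood at 41.1, 102 and 98.8 TPM in wild-type replicates 1 to 3 and 23.7, 25.8 and 26.9 TPM in knockout replicates 1 to 3, at -1.52 with that library and -1.94 without it. Slc7a11, a cystine transporter gene induced by the oxidative stress factor NRF2, stood at 8.82, 16.9 and 16.3 TPM in wild-type replicates 1 to 3 and 4.62, 4.14 and 3.85 TPM in knockout replicates 1 to 3 and fell by 1.48. Of 26 NRF2 targets 12 were lower and 4 higher (9 and 6 with median-ratio factors). Among them were Sqstm1 at -0.73 and the ferritin genes Fth1 and Ftl1, which rose by 0.20 and 0.21. Hivep3, a zinc finger gene, stood at 15.7, 21.4 and 22.4 TPM in wild-type replicates 1 to 3 and 5.47, 5.25 and 4.76 TPM in knockout replicates 1 to 3 without overlap, at -1.74 (SE 0.11, adjusted p = 2.8e-07). Cd40, a receptor of the TNF receptor family, stood at 53.5, 90.3 and 93.7 TPM in wild-type replicates 1 to 3 and 31.6, 28.9 and 31.4 TPM in knockout replicates 1 to 3 and fell by 1.30. Lyplal1 went against the pattern of wild-type replicate 1, which was its highest library, at 6.72, 5.44 and 4.53 TPM in wild-type replicates 1 to 3 and 0.587, 0.868 and 1.89 TPM in knockout replicates 1 to 3. Only knockout replicate 3 reached 1 TPM, so this difference is a description too.

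Over the 106 genes lower by at least 2-fold, wild-type replicate 1 was the wild-type library nearest to the knockout mean in 67 (63.2%), against 39.0% of all tested genes, 35.4% of all lower genes and 61.3% of higher genes. Of the 12 genes higher by at least 2-fold, it was the nearest in 2 (16.7%). With this library left out 114 of the 118 genes kept their call. The number of genes called at least 2-fold was then 168, against 118 with it.

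Interferon response genes were mostly lower: of 40 tested, 27 were lower and 3 higher, with a median of -0.36, against 28.3% lower and 12.8% higher over all genes. Without wild-type replicate 1 the count was 30 lower and 3 higher with a median of -0.45. It was 22 and 4 with median-ratio factors, and 21 and 3 of 39 with length and GC trends removed (median -0.20). With PBS the median was -0.26. The guanylate-binding protein gene Gbp5 stood at 13.2, 24.3 and 25.8 TPM in wild-type replicates 1 to 3 and 6.91, 6.22 and 7.31 TPM in knockout replicates 1 to 3 and fell by 1.45. Rsad2, which encodes viperin, fell by 1.02, Ifit1 by 0.98, Mx2 by 0.83 and Parp14 by 0.80. Irf1 stood at 143, 114 and 118 TPM in wild-type replicates 1 to 3 and 84.1, 82.7 and 86.7 TPM in knockout replicates 1 to 3, with wild-type replicate 1 the highest, and fell by 0.55. Ifnb1, the gene of interferon beta, had low values, 1.46, 1.97 and 2.72 TPM in wild-type replicates 1 to 3 and 0.802, 0.829 and 0.121 TPM in knockout replicates 1 to 3. It too passed the level filter only through the wild type, so the difference is a description, also where the counts of this list include it. The higher genes were Irf7 (0.24), Ifitm3 (0.23) and Bst2 (0.18).

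MHC class II genes, which present peptides to CD4 T cells, were higher in the knockout. Of 11 tested members 7 were higher and 1 lower, with a median of 0.31, against 12.8% higher over all genes, and the counts were the same with median-ratio factors, with length and GC trends removed and without wild-type replicate 1. H2-Aa and H2-Ab1 encode the chains of the I-A molecule. H2-Aa stood at 119, 131 and 126 TPM in wild-type replicates 1 to 3 and 176, 181 and 188 TPM in knockout replicates 1 to 3, and H2-Ab1 at 111, 127 and 123 TPM in wild-type replicates 1 to 3 and 176, 180.4 and 177 TPM in knockout replicates 1 to 3. Their knockout libraries lay above all wild-type ones, at 0.53 (SE 0.05, adjusted p = 2.4e-06) and 0.57 (SE 0.06, adjusted p = 7.5e-06). With PBS the same genes had log2 fold changes of 0.02 and -0.06. H2-Eb1 rose by 0.55, H2-DMa, which helps load peptides, by 0.56, H2-DMb1 by 0.26, the invariant chain gene Cd74 by 0.44 and the protease gene Ctss by 0.17. Ciita, which encodes the known master activator of class II genes, went the other way and fell by 0.60, at 1.99, 1.63 and 1.60 TPM in wild-type replicates 1 to 3 and 0.864, 1.02 and 0.568 TPM in knockout replicates 1 to 3. Its wild-type libraries alone met the level filter, and only the knockout library at 1.02 TPM reached the minimum. This fall is a description, also where the counts of this list include it. The costimulatory genes Cd80 (-0.17) and Cd86 (-0.10) did not pass.

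Genes of macrophage identity moved in both directions. Of 24 tested, 12 were higher and 7 lower (12 and 2 with median-ratio factors), and of the 10 macrophage markers 4 were higher and 6 lower (4 and 4), with a median of -0.12. The shares over all genes were 12.8% higher and 28.3% lower (19.9% and 22.4% with median-ratio factors). Of 32 genes of lysosomal acidification and proteolysis 10 were higher and 5 lower (16 and 5 with median-ratio factors). Cebpa, a myeloid transcription factor gene, stood at 115, 99.4 and 102 TPM in wild-type replicates 1 to 3 and 161, 165 and 159 TPM in knockout replicates 1 to 3. With PBS it was at 205 ± 11.0 TPM in the wild type and 200.3 ± 5.18 TPM in the knockout (SD, n = 3), so with C. albicans the knockout mean lay between the wild-type means with and without the yeast. Its log2 fold change was 0.62 (SE 0.05, adjusted p = 2.4e-06). Fcgr3, a receptor for antibody-coated particles, stood at 365, 363 and 350.4 TPM in wild-type replicates 1 to 3 and 474, 482 and 474 TPM in knockout replicates 1 to 3, at 0.41 (SE 0.03, adjusted p = 2.4e-07). Mertk, a receptor for dying cells, rose by 0.46, Apoe by 0.29, and the cathepsin genes Ctsd and Ctsh by 0.34 and 0.29. Csf1r, Adgre1 and Mpeg1 fell by 0.07, 0.17 and 0.28, and the calls for Csf1r and Adgre1 were lost with median-ratio factors. The Fc receptor, complement and scavenger list had 9 higher and 7 lower of 21. Fcgr4 and Fcgr1 rose by 0.32 and 0.30, and the scavenger receptor gene Msr1 fell by 0.65.

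Among the largest rises were genes at low level in the wild type with C. albicans. Gdf3, of the TGF-beta family, stood at 7.45, 7.60 and 6.79 TPM in wild-type replicates 1 to 3 and 17.1, 15.3 and 18.0 TPM in knockout replicates 1 to 3. Its level with PBS was 20.8 ± 2.46 TPM in the wild type and 17.2 ± 2.73 TPM in the knockout (SD, n = 3), and the log2 fold change with C. albicans was 1.10 (SE 0.11, adjusted p = 6.2e-06). Engase, a cytosolic glycosidase gene, stood at 10.0, 7.13 and 7.71 TPM in wild-type replicates 1 to 3 and 19.2, 17.7 and 18.1 TPM in knockout replicates 1 to 3, at 1.07 (SE 0.09, adjusted p = 2.6e-06). Both genes had no overlap between the genotypes and lay nearer to their PBS level in the knockout than in the wild type. Ier5l stood at 1.52, 2.27 and 2.21 TPM in wild-type replicates 1 to 3 and 5.35, 6.55 and 6.82 TPM in knockout replicates 1 to 3 and rose by 1.27. Thbd, encoding the anticoagulant receptor thrombomodulin, stood at 8.21, 7.28 and 8.72 TPM in wild-type replicates 1 to 3 and 14.8, 15.6 and 14.3 TPM in knockout replicates 1 to 3 and rose by 0.81. Cenpa, the gene of the centromeric histone, stood at 30.4, 22.0 and 20.4 TPM in wild-type replicates 1 to 3 and 47.7, 48.4 and 47.5 TPM in knockout replicates 1 to 3, at 0.97 (SE 0.11, adjusted p = 1.7e-05). Its rise was measured with PBS too, at 0.59. Dynlt1b, a dynein light chain gene, stood at 353, 338 and 351 TPM in wild-type replicates 1 to 3 and 590.5, 596 and 576 TPM in knockout replicates 1 to 3, with the smallest adjusted p of the named rises, 5.9e-09. It belongs to a family of near-identical copies, so reads may be split among them. Npdc1, Samd1, Tmem37 and Slc46a3 rose by 0.92, 0.76, 0.79 and 0.72. Thbs1, encoding a matrix thrombospondin, stood at 119, 81.3 and 82.7 TPM in wild-type replicates 1 to 3 and 142, 148 and 144 TPM in knockout replicates 1 to 3 and rose by 0.63.

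**Figure D3:**
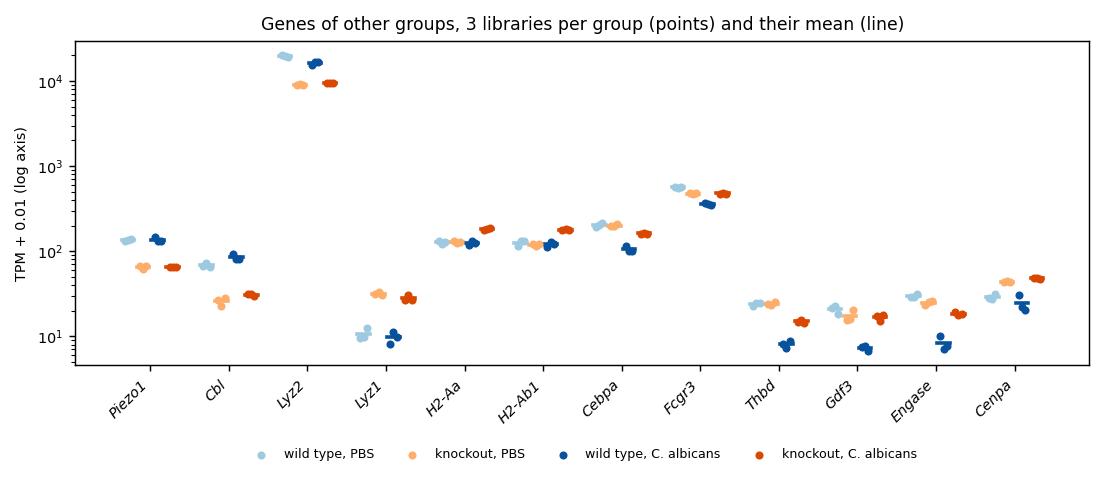
TPM + 0.01 on a log axis for genes outside the induced inflammatory set in the 4 groups, each point a library and each line a group mean. Piezo1, Cbl and Lyz2 are lower and Lyz1 is higher in the knockout with both treatments, while H2-Aa, H2-Ab1, Thbd, Gdf3 and Engase separate by genotype with C. albicans.

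The neighbouring lysozyme genes moved in opposite directions. Lyz2, the main lysozyme gene of macrophages (chromosome 10, 117277541 to 117282272), stood at 15462, 16631 and 16682 TPM in wild-type replicates 1 to 3 and 9411, 9482 and 9403 TPM in knockout replicates 1 to 3. Lyz1 (chromosome 10, 117287795 to 117292868) stood at 8.08, 11.2 and 9.74 TPM in wild-type replicates 1 to 3 and 26.6, 30.6 and 26.6 TPM in knockout replicates 1 to 3. Neither overlapped between genotypes, and the log2 fold changes were -0.78 (SE 0.03, adjusted p = 5.9e-09) and 1.45 (SE 0.11, adjusted p = 1.0e-06). The genes are close copies, so the division of reads between them is uncertain. With PBS the values were -1.11 and 1.51. Of 9 tested lysozyme and secreted antimicrobial genes 5 were higher and 3 lower, against 12.8% higher and 28.3% lower over all genes. The acute phase gene Saa3 was at 0.30, the complement factor gene Cfb at 0.25 and C3 at -0.84.

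Genes of the Hippo pathway and of actin and adhesion held more lower than higher calls, as did all genes tested, of which 28.3% were lower and 12.8% higher. Of 12 Hippo pathway genes 8 were lower and 0 higher, with Mob1b at -0.91, Mob1a at -0.75 and Lats1 at -0.53 (-0.23 with length and GC trends removed), and after that removal 7 of 12 were lower. Its kinase targets Yap1 and Wwtr1 did not reach the level filter. Of 35 actin and adhesion genes 18 were lower and 2 higher, among them Flna at -0.63 and the talin gene Tln1 at -0.44 (-0.25 with the trends removed). Vcl, encoding the adhesion protein vinculin, stood at 38.6, 38.5 and 39.4 TPM in wild-type replicates 1 to 3 and 24.5, 26.2 and 26.0 TPM in knockout replicates 1 to 3 and fell by 0.59. The integrin chain genes Itga5 and Itgav fell by 0.52 and 0.41, the second at -0.11 with the trends removed. Of 15 mechanosensitive channel genes, Piezo1 included, 7 were lower and 2 higher, which became 4 and 2 with median-ratio factors and 3 and 2 with length and GC trends removed. The median of this list was -0.14 with either treatment. Trpm7 fell by 0.47 (-0.15 with the trends removed), while P2rx4 rose by 0.23 and Trpv4 by 0.26. Of 23 calcineurin and NFAT genes, which respond to calcium, 9 were lower and 5 higher (3 and 5 with length and GC trends removed). Rcan1, a calcineurin-induced inhibitor gene, stood at 129, 138 and 139.8 TPM in wild-type replicates 1 to 3 and 101, 98.8 and 95.9 TPM in knockout replicates 1 to 3 and fell by 0.46. Nfat5 fell by 0.83 and stood at -0.35 with the trends removed. Caveolin genes, whose proteins shape membrane pits, were lower as well: Cav1 stood at 32.0, 53.7 and 52.3 TPM in wild-type replicates 1 to 3 and 25.1, 24.7 and 24.6 TPM in knockout replicates 1 to 3, where wild-type replicate 1 was the lowest of its group, and fell by 0.83, and Cav2 fell by 0.40 (-0.22 with the trends removed).

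Across the 10974 genes the log2 fold change fell with gene length, with a Spearman rho of -0.415, a description across genes that share the same 6 libraries. The median was 0.0731 in the shortest quartile of genes, 0.0036 and -0.0794 in the next quartiles and -0.218 in the longest, where 1495 of 2744 genes were called lower and 85 higher. After removal of length and GC trends rho was -0.0221, and 2577 of the 4413 called genes that could be fitted were called in the same direction and 24 in the opposite one. Short genes with small, uniform rises were those of oxidative phosphorylation, 30 of 74 higher and 0 lower (median 0.10), and cytosolic ribosomal proteins, 42 of 78 higher and 1 lower (median 0.10). With length and GC trends removed these counts were 13 higher and 0 lower, and 19 higher and 2 lower. All genes had 12.8% higher and 28.3% lower, and 17.3% and 16.5% with the trends removed. Rps2 stood at 1601, 1603 and 1627 TPM in wild-type replicates 1 to 3 and 1945, 1818 and 1906 TPM in knockout replicates 1 to 3 and rose by 0.23, and Atp5d, an ATP synthase subunit gene, at 122, 119 and 124 TPM in wild-type replicates 1 to 3 and 152, 161 and 156 TPM in knockout replicates 1 to 3 and rose by 0.36. With these trends removed, the log2 fold changes of other long genes named above were -0.37 for Rel, -0.25 for Traf6, -0.52 for Parp14 and -0.19 for Itgam, and those of short genes 0.17 for Apoe, 0.14 for Ccl5, 0.11 for Tyrobp and 0.06 for Fcer1g. The higher call for Bst2 was lost. Whether length itself played a part in any one gene was not tested.

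**Figure D4:**
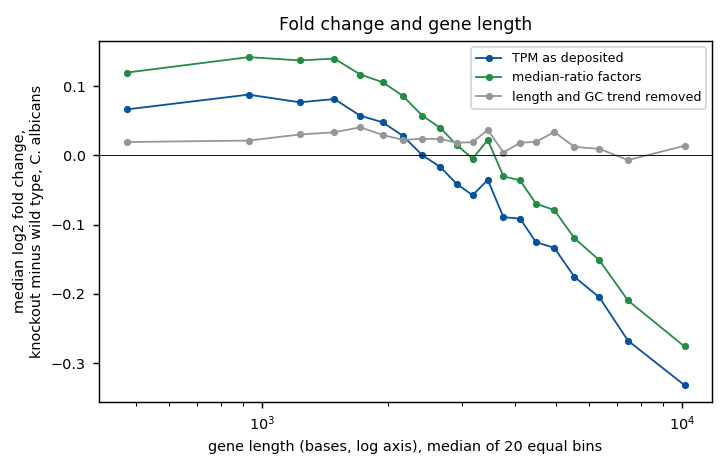
Median log2 fold change (knockout minus wild type with C. albicans) in 20 equal bins of genes ordered by length (log axis, bases). On TPM as deposited and with median-ratio factors long genes lie below 0 and short genes above it, and with the length and GC trends removed the line is nearly flat.

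To see which effects differed between the treatments, the knockout effect with C. albicans was tested against that with PBS. For the knockout libraries without yeast the titles give DMSO and the treatment label gives PBS, and they were used as PBS. The difference was called for 1573 genes (14.3%), 847 positive (7.72%) and 726 negative (6.62%). Of the 3105 genes lower in the knockout with C. albicans 601 had a more negative effect than with PBS, 27 a more positive one, and for 2477 no difference was called. Of the 106 lower at least 2-fold, 67 were more negative and 0 more positive. Of the 1408 higher genes 522 were more positive and 13 more negative. These counts use the same libraries with C. albicans on both sides, so they are a description. By list, 17 of 25 NF-kB genes, 9 of 24 immediate early genes, 7 of 13 cytokines and 5 of 8 CXC chemokines were more negative. Of 18 fungal recognition receptors 7 were more negative and 4 more positive. For 31 lectin signalling genes the counts were 7 and 2, and for 20 Toll-like receptor and adaptor genes 3 and 2. Itgam was among the more positive, at 0.45 (adjusted p = 6.4e-05). For Cxcl2 the difference was -1.44 (adjusted p = 5.1e-05), for Clec4e -1.56 (adjusted p = 1.5e-04), for Malt1 -1.10 (adjusted p = 3.0e-06) and for Acod1 -1.11 (adjusted p = 2.8e-04). Cav1 changed sides: its knockout effect was 1.36 with PBS and -0.83 with C. albicans, a difference of -2.18 (adjusted p = 2.1e-05). The interferon list had 1 of 40 more negative and 4 more positive, and without wild-type replicate 1 the count was 15 and 5, where 9.66% of all genes were more negative and 13.4% more positive. For Piezo1, Cbl and Lyz1 no difference was called, at -0.03 (adjusted p = 0.79), -0.07 (adjusted p = 0.73) and -0.06 (adjusted p = 0.84). Lyz2, lower with both treatments, had a called difference of 0.33 (adjusted p = 1.7e-04). Over all genes the effects with PBS and with C. albicans, which share no library, had a Spearman rho of 0.449, given as a description beside the length trend of both.

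**Figure D5:**
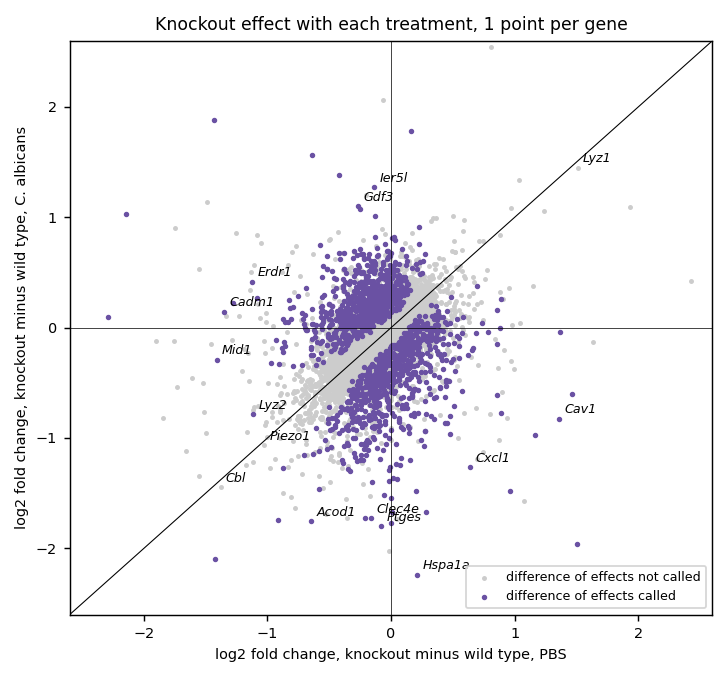
Knockout effect with PBS (x axis) and with C. albicans (y axis) as log2 fold changes, 1 point per gene, purple where the difference of effects was called. 1 gene lies outside the plotted range. Hspa1a, Ptges, Clec4e and Acod1 lie far below the diagonal line of equal effects, and Cbl, Piezo1 and Lyz1 lie near it.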

How the data were processed

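Reads of 12 libraries were processed by the authors with CASAVA 1.8, cutadapt 2.6, STAR 2.7.5a and DESeq2 1.34.0 on the mm10 build, per the submitters' processing notes. Neither the counter, its strand setting nor the annotation is stated in the sources used, so sense and antisense reads cannot be told apart. The authors deposited TPM per gene, which sum to the same total in each library. They also deposited a mean normalised signal, used here only to recover reads per gene: all values above 0 lay within 0.01 of a whole read. Their log2, score and p-value columns, also deposited, were not used. Positions and promoters come from RefSeq GRCm38.p6, where 25180 of 25230 gene IDs matched.

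Limma 3.58.1 in R 4.3.3 was fitted to log2(TPM + 1) over all 12 libraries, with 1 mean per group, a variance trend, no block and 8 residual degrees of freedom. P-values were two-sided and adjusted by Benjamini-Hochberg over the 10974 genes. Groups follow titles and treatment labels. Alternatives were other scalings, pseudocounts, filters and variance settings, removal of length and GC trends (10488 genes), voom on recovered reads, and each library left out.

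On simulated data for the knockout effect with C. albicans over 11053 genes, 39 of 50 genes changed 1.5-fold and 48 of 50 changed 2-fold were recovered. The simulated libraries took their spread from the wild-type PBS libraries. They held no length trend and no library set apart like wild-type C. albicans replicate 1, so these rates need not hold for the comparison itself. Named genes were Piezo1, Lyz2 and Lyz1, the 15 largest rises and falls without overlap at a mean of at least 5 TPM and 300 bases, the 8 largest differences of effects each way, up to 4 members per list with the smallest p, and a fixed panel. List members given outside it, and the examples among the named genes, were chosen after their values were seen. The members and lists were chosen with earlier results of these data known.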

Additional observations from a re-analysis of the deposited data

Results flagged for a closer look

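The knockout effect with C. albicans was tested against the knockout effect with PBS, and 1573 of 10974 genes (14.3%) differed. Of the 190 named genes 130 differed. That share follows in part from the choice, since some were named for the largest differences of effects. Others were named for a small p or a large change in the same libraries. The 25 whose difference was at least 1 on the log2 scale are given here, as log2 fold changes of the knockout against the wild type in each treatment.

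Among the named genes, many of which were picked from inflammatory lists, 17 had an effect more negative with C. albicans by this size. Hspa1a had 0.21 with PBS and -2.24 with C. albicans, a difference of -2.45 (adjusted p = 0.041). That call was lost when any 1 of 11 libraries was left out and was kept without wild-type C. albicans replicate 1, at -3.35. Chemokine and cytokine genes of this kind were Cxcl3 (0.28 with PBS and -1.67 with C. albicans, difference -1.95), Cxcl1 (0.64 with PBS and -1.26 with C. albicans, difference -1.91), Cxcl2 (0.48 with PBS and -0.96 with C. albicans, difference -1.44) and Il1b (0.15 with PBS and -0.91 with C. albicans, difference -1.06). Receptor and signalling genes were Clec4e (-0.16 with PBS and -1.72 with C. albicans, difference -1.56), Gpr84 (-0.06 with PBS and -1.52 with C. albicans, difference -1.46) and Malt1 (0.14 with PBS and -0.95 with C. albicans, difference -1.10). Enzyme and transporter genes were Ptges (-0.08 with PBS and -1.80 with C. albicans, difference -1.72), Ptgs2 (0.08 with PBS and -1.25 with C. albicans, difference -1.33), Acod1 (-0.65 with PBS and -1.75 with C. albicans, difference -1.11), Nos2 (-0.21 with PBS and -1.73 with C. albicans, difference -1.52), Slc7a11 (0.20 with PBS and -1.48 with C. albicans, difference -1.68) and Lyplal1 (0.01 with PBS and -1.67 with C. albicans, difference -1.68). With voom on recovered reads the difference was not called for 5 of the 25, namely Hspa1a, Cxcl3, Nos2, Gpr84 and Il1b. Cxcl1 was lost with a pseudocount of 0.1. With PBS Cxcl1 stood at 0.139, 0 and 0 TPM in the wild type and 1.17, 0 and 0.992 TPM in the knockout. Cxcl3 stood at 0.389, 0.400 and 0.236 TPM and 0.505, 1.05 and 0.396 TPM. The genotypes overlapped for each gene, so their positive PBS values are differences near the floor. Nos2 passed the level filter only through the wild type with C. albicans, so its values are a description. Lyplal1 reached 1 TPM in only 1 knockout library with C. albicans, and its values are a description too.

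For Cav1 and a pair of less known genes the log2 fold change was positive with PBS and negative with C. albicans. The values were Cav1 (1.36 with PBS and -0.83 with C. albicans, difference -2.18), AA467197 (1.16 with PBS and -0.98 with C. albicans, difference -2.14) and 3830403N18Rik (1.47 with PBS and -0.60 with C. albicans, difference -2.07). AA467197 stood at 1.85, 1.91 and 2.81 TPM in the wild type and 6.70, 5.53 and 6.09 TPM in the knockout with PBS, and at 8.95, 10.3 and 7.70 TPM and 5.14, 2.42 and 5.10 TPM with C. albicans. Its libraries did not overlap in either treatment. For 3830403N18Rik the lower call with C. albicans held in 17 of 28 alternatives and was lost with length and GC trends removed (limma, adjusted p = 0.051) and with the replicate block (adjusted p = 0.053).

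Genes whose effect was more positive with C. albicans were Erdr1 (-1.12 with PBS and 0.42 with C. albicans, difference 1.54), Cadm1 (-1.35 with PBS and 0.15 with C. albicans, difference 1.50), Ier5l (-0.14 with PBS and 1.27 with C. albicans, difference 1.41), Gdf3 (-0.27 with PBS and 1.10 with C. albicans, difference 1.37), Tmem176b (-1.08 with PBS and 0.26 with C. albicans, difference 1.35), Engase (-0.25 with PBS and 1.07 with C. albicans, difference 1.33), BC064078 (-0.58 with PBS and 0.75 with C. albicans, difference 1.32) and Mid1 (-1.41 with PBS and -0.29 with C. albicans, difference 1.12). Cadm1, encoding a cell adhesion molecule, stood at 47.6, 47.6 and 46.5 TPM in the wild type with PBS, and its group means were 17.9 TPM in the knockout with PBS, 17.2 TPM in the wild type with C. albicans and 19.2 TPM in the knockout with C. albicans. With C. albicans its log2 fold change did not pass (adjusted p = 0.056), nor did that of Tmem176b (adjusted p = 0.38). Cadm1 was called higher in 11 of 28 alternatives, among them median-ratio factors (0.20) and length and GC trends removed (0.46), and Tmem176b in 0 of 27. The copies of Erdr1 in the genome are poorly resolved, so its reads are uncertain.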

How the results depend on the processing

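The count of called genes ran from 3480 to 5526 over 28 alternatives, each within 1.5 times of 4513. Genes higher numbered 2181 with median-ratio factors, 2446 with upper-quartile factors, 2271 with TMM factors, 2302 with voom, and, without wild-type C. albicans replicate 1, 2298 with median-ratio factors and 2115 with length and GC trends removed. They ran from 1036 to 1749 when 1 library was left out, the highest without wild-type C. albicans replicate 1. Genes lower numbered 1732 with length and GC trends removed, 1696 with the replicate block as well and 1925 without wild-type C. albicans replicate 1, where fewer genes were tested. Leaving out 1 library gave 2639 to 3165. Genes changed at least 2-fold numbered 65 with length and GC trends removed, with or without the replicate block, 206 with a pseudocount of 0.1 and 203 with voom, and 105 to 168 when 1 library was left out. Differences of effects numbered 3024 with array weights, 2485 with median-ratio factors and 2578 with length and GC trends removed, both without wild-type C. albicans replicate 1, and from 1047 without knockout PBS replicate 1 to 2530 without wild-type C. albicans replicate 1. Of 185 named genes called, 171 kept the call in every alternative, 14 lost it in at least 1 and 0 reversed. Most were named for a small p or a large change in these libraries, so this count does not stand for all calls. Among all called genes, 2577 of the 4413 fitted with length and GC trends removed kept the call, and 24 were called in the opposite direction. Of 80 list counts 41 stayed within 1.5 times.

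Replicate numbers were not taken as pairs: deviations of same-numbered wild-type and knockout libraries with C. albicans correlated at -0.0051, -0.0463 and 0.0008, and none correlated best with its own number. Same-numbered wild-type and knockout libraries with PBS correlated at 0.0536, 0.0487 and 0.0937, each best with its own number, a hint from the data below the 0.1 needed for pairing. With the replicate block 4421 genes were called and 1440 differences of effects. The planned count-model alternatives were not run, as the deposited unit is TPM. In a wild-type or knockout group of 3, a left-out library leaves 2, and low genes such as Il6 rest on few reads. Why counts moved was not tested, except that fewer genes or libraries entered some alternatives.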
